A study of Mus musculus with 7 samples.

Results

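The cytosolic ribosome of mammals is built from ribosomal RNA and a fixed set of ribosomal proteins, and the genes for these proteins were followed here in the livers of mice that lack Rbpj. Members were chosen by gene name alone: every non-control probe of the array whose gene is called Rpl or Rps with a number and at most 1 further letter, or Rplp0, Rplp1, Rplp2 or Rpsa, with the ribosomal S6 kinases left out. This gave 80 genes, of 35715 gene names on the array, read by 183 probes. For 77 of the genes at least 1 probe (176 in all) was bright enough to be tested, and the 3 others were Rpl3l, Rpl10l and Rpl39l.

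Ribosomal proteins are made in equal numbers, assembled onto ribosomal RNA in the nucleolus and exported as a small (Rps genes) and a large (Rpl genes) subunit. Their mRNAs are among the most abundant of any cell, and most begin with a run of pyrimidines, the 5′ terminal oligopyrimidine or TOP motif, through which mTOR signalling adjusts their translation. In the liver, ribosome production is known to rise when hepatocytes prepare to divide.

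The animals were C57BL/6J mice aged 4 weeks, and total RNA of whole liver was hybridised to 1 single-colour array per animal. All 7 animals carried Rbpj flox/flox. The 3 Rbpj-/- animals (-/-_N3, -/-_N5 and -/-_2866 after their labels) also carried AlfpCre, a transgene that removes the floxed segment in the hepatocyte and biliary lineage, whereas the 4 Rbpj+/+ animals (+/+_1155, +/+_1156, +/+_1024 and +/+_991) did not carry it. Other liver cells keep the gene, and at this age the Rbpj-/- livers are cholestatic. In whole tissue, fewer cells of a type and less RNA per cell cannot be told apart. All arrays lay on 1 slide, with Rbpj+/+ in the first row and Rbpj-/- in the second, so that row and genotype cannot be told apart. Levels are log2 intensities minus the 75th percentile of all probes of that array, so that 0 is the 75th percentile.

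The deleted gene was checked first. The brighter Rbpj probe read 0.97, 0.29, 0.33 and 0.81 in +/+_1155, +/+_1156, +/+_1024 and +/+_991, and -0.35, -0.78 and -0.48 in -/-_N3, -/-_N5 and -/-_2866. All 3 Rbpj-/- livers lay below the 4 Rbpj+/+ livers, with a log2 fold change of -1.13 ± 0.24 (SE, limma adjusted p = 0.012). The arrays differed in background: between 41.2% and 65.0% of probes were well above it, with the highest shares on +/+_1156 (62.1%) and -/-_N3 (65.0%), whose dim probes were brighter than those of the other arrays. The 75th percentile that sets the scale was an intensity of 57.5 to 103 in Rbpj+/+ and of 118 to 143 in Rbpj-/-, without overlap.

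Sequences are shown for 4 members whose probes disagreed with each other, since the genotype difference varied with the position of the probe on its transcript. Each line holds 30 of the 60 bases of a probe, 5′ to 3′, with its position on the transcript and the mm9 placement of the whole probe as the array files give it. Capitals mark AATAAA, the signal for cleavage and polyadenylation that lies close to the 3′ end of an mRNA.
Rplp1 probe from base 239 (chrX:67906509-67906568, minus strand): atgtcaacattgggatcctcatctgcaatg
Rplp1 probe from base 377 (chrX:67906336-67906395, minus strand): gttaagttggccAATAAAgagctgaacctg
Rpl21 probe from base 377 (chr8:22464646-22464705, plus strand): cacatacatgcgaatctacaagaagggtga
Rpl21 probe from base 491 (chr17:56054788-56054847, minus strand): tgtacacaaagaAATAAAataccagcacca
Rpl21 probe from base 493 (chr8:22231509-22231568, plus strand): tgtacacaaagaAATAAAgtaccagtacca
Rpl26 probe from base 63 (chr7:123741945-123742004, minus strand): aatgaagttcaaccccttcgtgacttctga
Rpl26 probe from base 180 (chr16:28951267-28951326, minus strand): acagaagtagaacgttcggtctatgcccat
Rpl26 probe from base 283 (chr2:14548674-14548733, minus strand): tatacaggaagaagtatgtcatctacatcg
Rpsa probe from base 91 (chr13:91402225-91402284, minus strand): ttacacaatgtccagagcccttaacgtcct
Rpsa probe from base 876 (chr4:59175191-59175250, minus strand): agcagttccccaatggaagactggagtgca
Rpsa probe from base 990 (chr10:128213358-128213417, minus strand): agatggaaggaaAATAAAgttgctaaaagc
Ribosomal protein genes have many processed copies in the mouse genome, and the placements reflect this. Of 174 tested probes with a placement, 123 were placed on a chromosome other than that of the gene and 51 on its own, and the Rplp1 probes, for example, were placed on chromosome X. The median log2 fold change was -0.37 for the 51 probes and -0.29 for the 123. Signal of a gene and of a near-identical copy cannot be told apart by such probes, and each value holds for the sum of what hybridised.

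The promoters of members share features that the name rule did not use. Of the 80 genes, 59 had a promoter sequence in RefSeq (GRCm38.p6), from 250 bases before to 50 bases after the annotated start. A run of at least 8 C or T bases that touched the 20 bases around the start was found in 26 of the 59 (44.1%) and in 13.5% of 27025 promoters. The motif CCGGAAG, on either strand, was present in 39.0% of the members and in 9.12% of all promoters, GGGCGG in 57.6% and 35.9%, and TATAAA in 8.47% and 14.2%. The windows below show 15 bases on either side of the start for 6 members, with the longest pyrimidine run near the start in capitals, among them genes with a long run (Rps6, Rplp2, Rps18, Rpl13a) and without one (Rpl5, Rplp0).
Rps6 (chr4:86857353-86857382, minus strand): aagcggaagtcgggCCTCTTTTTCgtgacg
Rplp2 (chr7:141447636-141447665, plus strand): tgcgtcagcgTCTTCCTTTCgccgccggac
Rps18 (chr17:33955651-33955680, minus strand): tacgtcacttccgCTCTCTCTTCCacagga
Rpl13a (chr7:45128731-45128760, minus strand): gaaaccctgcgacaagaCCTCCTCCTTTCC
Rplp0 (chr5:115559452-115559481, plus strand): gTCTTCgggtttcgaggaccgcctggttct
Rpl5 (chr5:107900513-107900542, plus strand): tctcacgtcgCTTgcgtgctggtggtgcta
The 26 members with a run of at least 8 had a median log2 fold change of -0.37, and 7 of them were called lower at a limma adjusted p below 0.1, where 19.6% of all tested genes were. The 30 tested members with a shorter run had a median of -0.35, and 5 were called lower.

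With the 75th percentile shift, 20 of the 77 tested ribosomal protein genes (26.0%) were called lower in Rbpj-/- livers and 0 higher at an adjusted p below 0.1, where 19.6% of all 18771 tested genes were called lower and 14.6% higher. The other 57 did not pass. Called or not, 72 of the 77 had a log2 fold change below 0, against 57.8% of all tested genes. At an unadjusted limma p below 0.05, 28 members passed and 0 of them were higher. The median log2 fold change of the members was -0.37, a 1.30-fold lower level, with quartiles of -0.50 and -0.16, beside a median of -0.13 and quartiles of -0.52 and 0.35 over all tested genes. In 27 of the 77 members (35.1%) the highest Rbpj-/- value lay under the lowest Rbpj+/+ value, against 21.1% of all tested genes, and in 0 members the lowest lay over the highest, against 15.4%. In both subunits members were called: 13 of 45 large-subunit genes were called lower (median -0.40) and 7 of 32 small-subunit genes (median -0.36).

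The count rested on single animals. Without +/+_1024 or without -/-_N3 it came to 1, Rplp1 in both cases, and without +/+_1155, +/+_991, -/-_N5 or -/-_2866 to 9, 4, 7 and 3, all of them among the 20. Without +/+_1156 it came to 32, the 20 included. The shares of all tested genes called in these fits are not given here, so these changes cannot be read as particular to the members. The median stayed between -0.50 and -0.27 whichever animal was left out.

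With quantile scaling, which forces all arrays to the same distribution, most of this difference was gone. The median of the same 77 genes was -0.053, 42 lay below 0 and 35 above, and 3 (3.90%) were called lower and 0 higher, where 15.2% of all tested genes were called lower and 16.6% higher. The 3 genes, Rps4l, Rps27l and Rplp1, were also among the 20 called with the percentile shift. The order of the members hardly depended on the scaling: across the 77 genes, which share arrays and are not independent, Pearson's r of the log2 fold changes under both scalings was 0.959 and Spearman's rho 0.962.

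**Figure D1:**
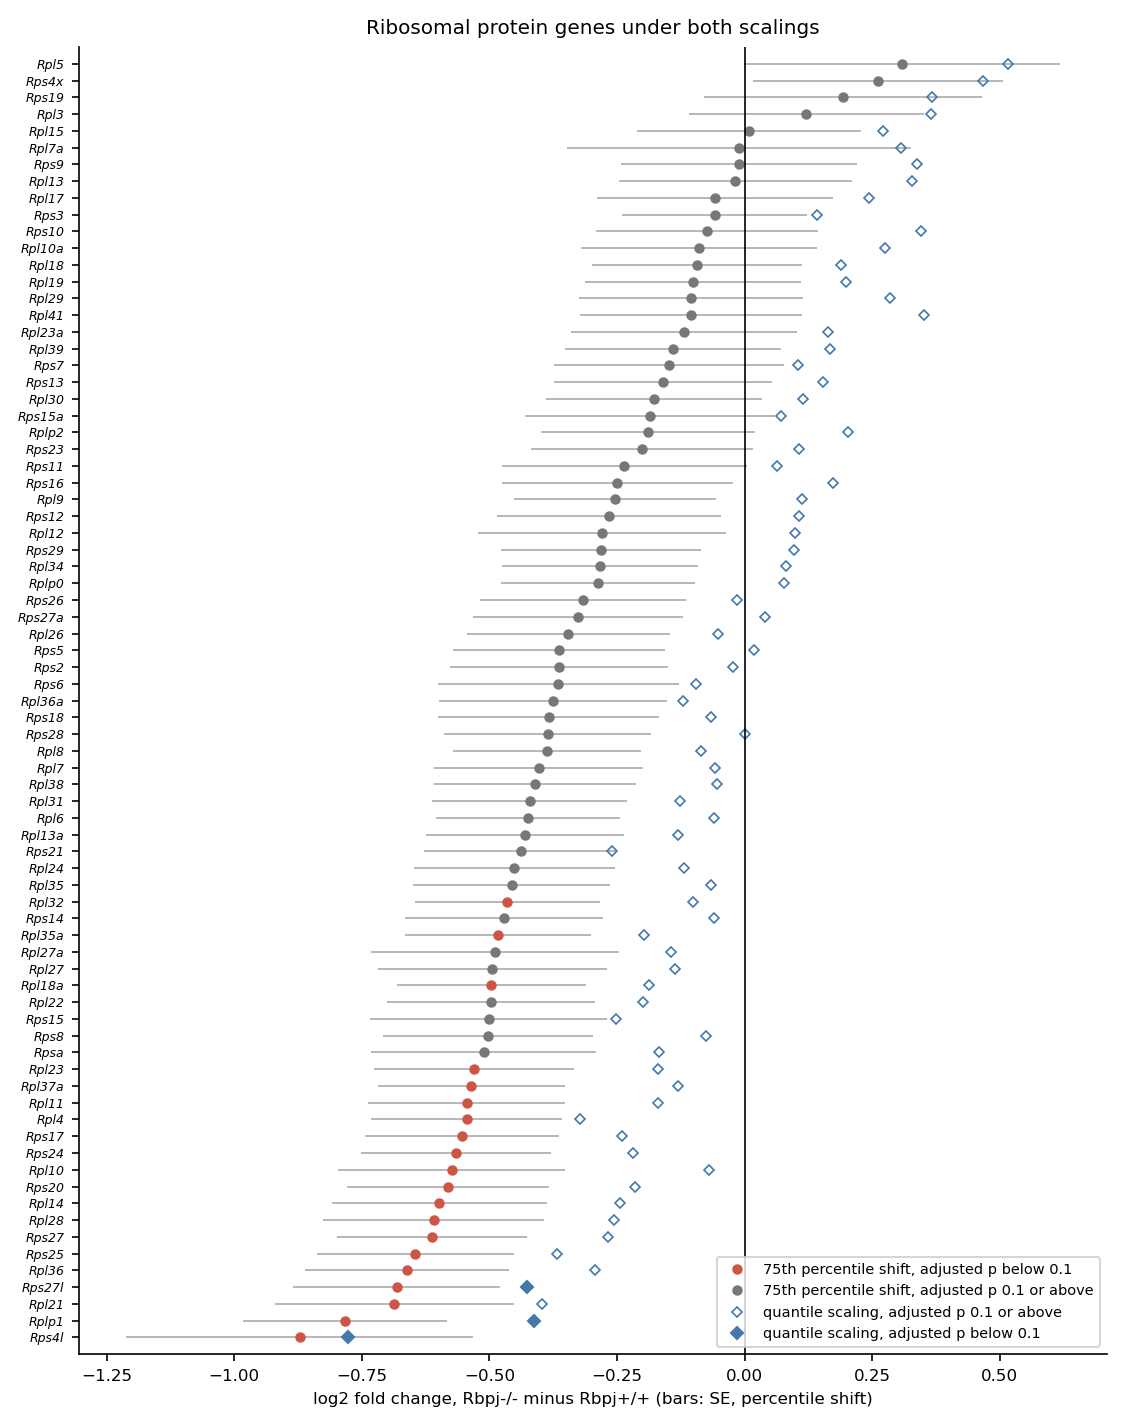
Log2 fold change (Rbpj-/- minus Rbpj+/+) of the 77 tested ribosomal protein genes, each read by its brightest probe, with circles and SE bars for the 75th percentile shift and diamonds for quantile scaling, and filled colour where the adjusted p was below 0.1. With the percentile shift 72 of the circles lie left of 0, whereas the diamonds lie on both sides, 42 left and 35 right.

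The level of each animal shows how far the shift of the set depends on the scale. With the percentile shift, the median deviation of the 77 genes from their Rbpj+/+ mean was 0.0064, -0.29, 0.19 and 0.080 in +/+_1155, +/+_1156, +/+_1024 and +/+_991, and -0.53, -0.15 and -0.44 in -/-_N3, -/-_N5 and -/-_2866. The groups overlapped, as +/+_1156 lay below -/-_N5. With quantile scaling the deviations were -0.023, 0.032, 0.014 and -0.025 in Rbpj+/+ and -0.051, 0.14 and -0.17 in Rbpj-/-, so that the Rbpj-/- livers lay on both sides of the Rbpj+/+ livers. Without any scaling between arrays they were 0.39, -0.16, -0.25 and 0.014 in Rbpj+/+ and 0.33, 0.58 and 0.15 in Rbpj-/-. On that scale the median log2 fold change of the set was 0.35, beside 0.60 over all tested genes. Here 10 members were called higher and 0 lower, where 41.1% of all tested genes were called higher and 2.38% lower.

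**Figure D2:**
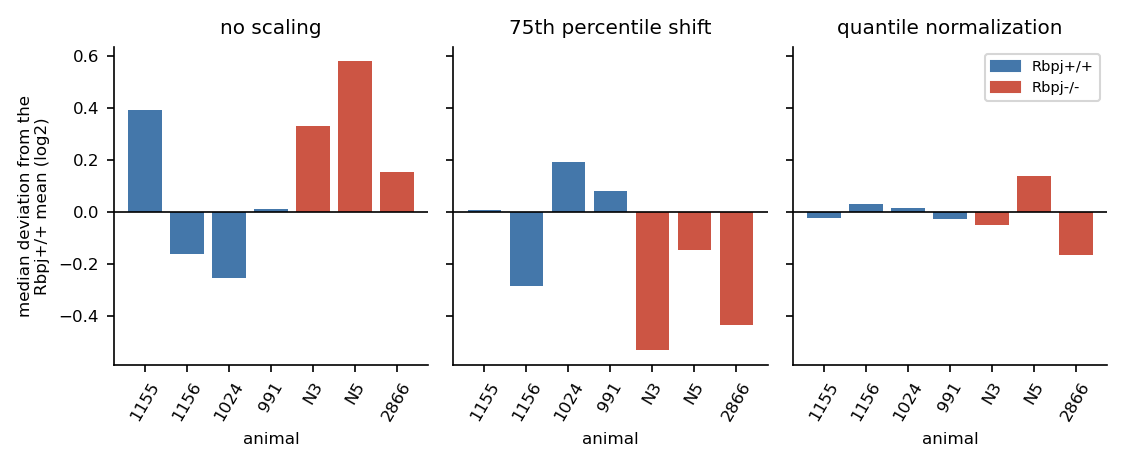
Median over the 77 ribosomal protein genes of each animal's deviation from the Rbpj+/+ mean (log2), as 1 bar per animal, without scaling, with the 75th percentile shift and with quantile scaling. All 3 Rbpj-/- bars lie above 0 without scaling, all below 0 with the percentile shift and on both sides with quantile scaling. The median log2 fold change over all tested genes was 0.60, -0.13 and -0.040 in the same order.

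Other bright genes shifted like the ribosomal protein genes. Of the 77 members, 74 lay among the brightest 10% of tested genes by mean level. The 1803 other genes of that class had a median log2 fold change of -0.32 with the percentile shift, 29.2% of them were called lower and 3.99% higher, beside a median of -0.37, 25.7% lower and 0 higher for the 74 members. With quantile scaling the median of these other genes was -0.028 and that of the 74 members -0.052. The members differed from other bright genes in how closely they kept together: with the percentile shift their quartiles were -0.50 and -0.16, against -0.61 and 0.0011 for the others, and with quantile scaling 2.70% of the 74 members were called lower and 0 higher, against 14.0% and 16.0% of the others. No test of this difference was made.

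**Figure D3:**
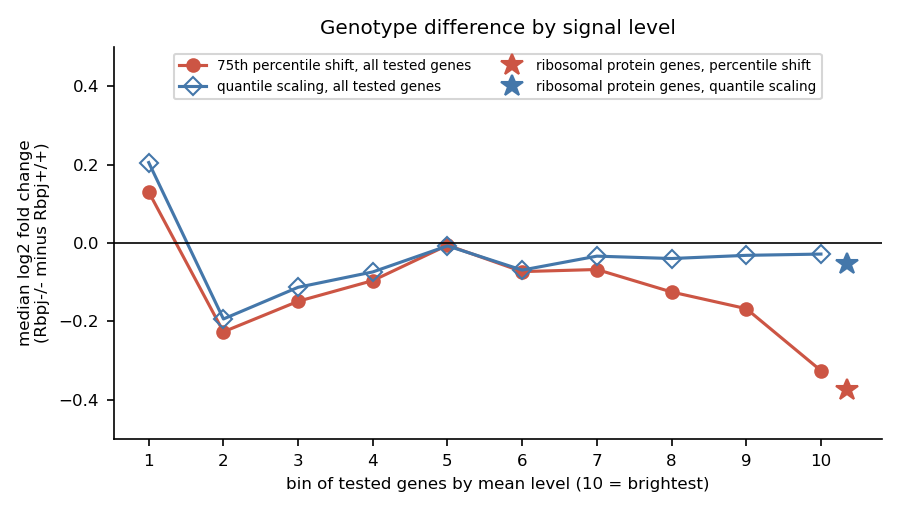
Median log2 fold change (Rbpj-/- minus Rbpj+/+) of all tested genes in 10 equal bins of mean level, from the dimmest (1) to the brightest (10), with circles for the 75th percentile shift and diamonds for quantile scaling, and stars for the ribosomal protein genes. In the brightest bin the circle lies at -0.33 and the diamond at -0.028, next to the stars at -0.37 and -0.053.

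The stalk of the large subunit, formed by Rplp0, Rplp1 and Rplp2, recruits the elongation factors to the ribosome. Rplp1 read 8.29, 8.21, 8.66 and 8.47 in +/+_1155, +/+_1156, +/+_1024 and +/+_991, and 7.48, 7.86 and 7.54 in -/-_N3, -/-_N5 and -/-_2866. All Rbpj-/- livers lay below all Rbpj+/+ livers, and Rplp1 was 1.72-fold lower, with a log2 fold change of -0.78 ± 0.20 (SE, limma adjusted p = 0.025), the second largest fall of the 77 genes. Quantile scaling gave -0.41 (limma adjusted p = 0.083). This was the probe at the 3′ end of the transcript, and the other Rplp1 probe, from base 239, gave -0.14 ± 0.23 (SE, limma adjusted p = 0.686), so the call belongs to the 3′ probe, whose transcript record was not matched to Rplp1 in the RefSeq table. The call held whichever single animal was left out (limma adjusted p of 0.022 to 0.085). Rplp0, often used as a reference gene, read 8.49, 8.06, 8.47 and 8.39 in Rbpj+/+, and 7.98, 8.20 and 8.00 in Rbpj-/-. The groups overlapped, and the log2 fold change was -0.29 ± 0.19 (SE, limma adjusted p = 0.298) with the percentile shift and 0.078 (limma adjusted p = 0.697) with quantile scaling. Its other probes gave -0.11 ± 0.19 (SE, limma adjusted p = 0.715) from base 1018 and 0.25 ± 0.19 (SE, limma adjusted p = 0.367) from base 1096. The last of these, the only Rplp0 probe placed on the gene's own chromosome, was called higher with quantile scaling, at 0.55 (limma adjusted p = 0.043). Rplp2 gave -0.19 ± 0.21 (SE, limma adjusted p = 0.537) and 0.20 (limma adjusted p = 0.377) in the same order, again with overlapping groups.

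Among the genes named as a second copy of another member, Rps4l and Rps27l were called lower under both scalings. Rps27l, a copy of Rps27 known as a target of p53, read 7.04, 6.46, 6.98 and 6.94 in +/+_1155, +/+_1156, +/+_1024 and +/+_991, and 6.10, 6.22 and 6.20 in -/-_N3, -/-_N5 and -/-_2866. The groups did not overlap, and the level was 1.6-fold lower in Rbpj-/-, with a log2 fold change of -0.68 ± 0.20 (SE, limma adjusted p = 0.041) and, with quantile scaling, of -0.43 (limma adjusted p = 0.061). Rps27 itself gave -0.61 ± 0.19 (SE, limma adjusted p = 0.044) with the percentile shift and -0.27 (limma adjusted p = 0.192) with quantile scaling. Rps4l read 4.03, 3.29, 4.17 and 4.56 in Rbpj+/+, and 2.60, 3.22 and 3.61 in Rbpj-/-. This was the largest fall, -0.87 ± 0.34 (SE, limma adjusted p = 0.095), but the groups overlapped, since +/+_1156 lay below -/-_2866. Quantile scaling gave -0.78 (limma adjusted p = 0.084) for Rps4l. The call of Rps27l was lost without +/+_1024, -/-_N3 or -/-_N5 and that of Rps4l without +/+_1155, +/+_1024, +/+_991, -/-_N3 or -/-_N5, with limma adjusted p of 0.107 to 0.116 and of 0.148 to 0.284. Rps4x, the small-subunit gene on the X chromosome that Rps4l resembles, gave 0.26 ± 0.25 (SE, limma adjusted p = 0.462), with the groups overlapping. Rpl3l, Rpl10l and Rpl39l, copies whose expression is known mainly from muscle or testis, were not well above background in all animals of either genotype. Their probes were detected on 0 (Rpl39l), 1 (Rpl3l) and 2 (Rpl10l) of the 7 arrays, +/+_1156 and -/-_N3 among them. The members they copy were Rpl3 (0.12 ± 0.23 (SE, limma adjusted p = 0.727)), Rpl10 and Rpl39 (-0.14 ± 0.21 (SE, limma adjusted p = 0.657)).

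The other large falls were those of Rpl21 and Rpl36, both large-subunit proteins. Rpl36 read 8.19, 8.14, 8.56 and 8.23 in Rbpj+/+, and 7.39, 7.83 and 7.63 in Rbpj-/-, and all Rbpj-/- values lay below all Rbpj+/+ values. The log2 fold change was -0.66 ± 0.20 (SE, limma adjusted p = 0.044) with the percentile shift and -0.29 (limma adjusted p = 0.194) with quantile scaling. Rpl21 gave -0.69 ± 0.23 (SE, limma adjusted p = 0.065) and -0.40 (limma adjusted p = 0.207) from its brightest probe, again without overlap. Rpl10, which joins the large subunit late in its maturation, read 9.22, 8.95, 9.57 and 9.55 in Rbpj+/+, and 8.54, 8.97 and 8.74 in Rbpj-/-. It was called lower at -0.57 ± 0.22 (SE, limma adjusted p = 0.093), although +/+_1156 lay just under -/-_N5, and quantile scaling gave -0.070 (limma adjusted p = 0.780).

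**Figure D4:**
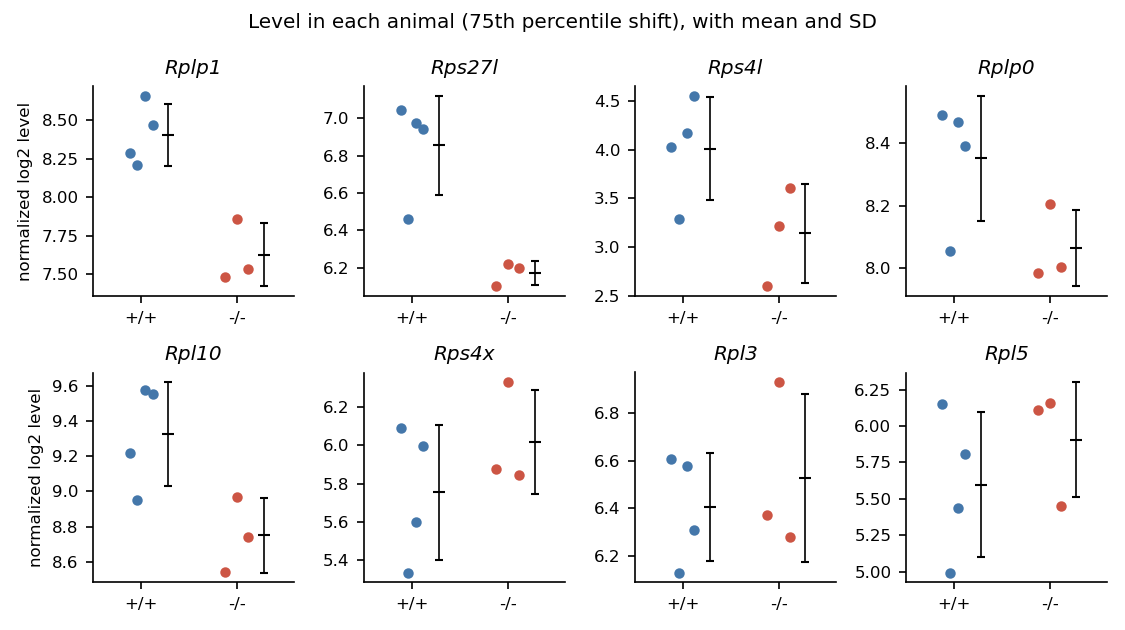
Normalized log2 level of 8 ribosomal protein genes in each animal (75th percentile shift; 4 Rbpj+/+ in blue, 3 Rbpj-/- in red), with the mean and SD of each group as a bar beside the points. Rplp1 and Rps27l do not overlap between genotypes, whereas Rps4l, Rplp0, Rpl10, Rps4x, Rpl3 and Rpl5 do.

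Rpl5 and Rpl11 bind the 5S ribosomal RNA together and, outside the ribosome, inhibit Mdm2, the ubiquitin ligase of p53. Their probes differed in direction. Rpl11 read 8.34, 8.12, 8.57 and 8.43 in Rbpj+/+, and 7.70, 8.02 and 7.74 in Rbpj-/-, without overlap, and fell by 0.54 on the log2 scale (SE 0.19, limma adjusted p = 0.072). With quantile scaling Rpl11 gave -0.17 (limma adjusted p = 0.387) and did not pass. Rpl5 read 6.15, 4.99, 5.44 and 5.81 in Rbpj+/+, and 6.11, 6.16 and 5.45 in Rbpj-/-, with the groups overlapping and the widest spread among the genes named by role. Rpl5 had the highest log2 fold change of the 77 members, 0.31 ± 0.31 (SE, limma adjusted p = 0.492), which did not pass the test, and quantile scaling gave 0.52 (limma adjusted p = 0.242). The next highest values, those of Rps4x, Rps19 (0.19 ± 0.27 (SE, limma adjusted p = 0.635)), Rpl3 and Rpl15 (0.0086 ± 0.22 (SE, limma adjusted p = 0.981)), did not pass either, and their groups overlapped.

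Of 6 further members named for their roles (Rps6, Rps14, Rpsa, Rpl13a, Rpl22 and Rps27a), 0 passed the limma test from the brightest probe and 3 had an unadjusted p below 0.05, with log2 fold changes of -0.51 to -0.33. Rps6, the substrate of the S6 kinases, read 6.92, 6.48, 7.03 and 6.91 in Rbpj+/+, and 6.27, 6.90 and 6.25 in Rbpj-/-, with overlapping groups and a log2 fold change of -0.37 ± 0.24 (SE, limma adjusted p = 0.286). Rps14, like Rps19, is needed for maturation of the small subunit and gave -0.47 ± 0.19 (SE, limma adjusted p = 0.110) without overlap between the groups. Rpsa, the small-subunit protein also known as a laminin receptor, gave -0.51 ± 0.22 (SE, limma adjusted p = 0.124) from its brightest probe, Rpl13a -0.43 ± 0.19 (SE, limma adjusted p = 0.137) and Rpl22 -0.50 ± 0.20 (SE, limma adjusted p = 0.109). Rps27a, which is made as a fusion with ubiquitin, gave -0.33 ± 0.21 (SE, limma adjusted p = 0.276). Under quantile scaling the log2 fold changes of the brightest probes of these 6 genes ranged from -0.20 (Rpl22) to 0.039 (Rps27a), and 0 of them passed. Other probes of Rpl22, Rps27a and Rpsa were called lower with the percentile shift. The Rpl22 probe from base 2023 gave -0.60 ± 0.24 (SE, limma adjusted p = 0.099), and -0.59 (limma adjusted p = 0.050) with quantile scaling. The other Rps27a probe gave -0.53 with the percentile shift.

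To compare members with each other rather than with the rest of the array, each array was also scaled on the median of the 77 genes. On that scale, added after the values had been seen, 1 member was lower, Rplp1 (-0.41 ± 0.14, SE, limma adjusted p = 0.067), where 6.76% of all tested genes were called lower and 29.5% higher. A further 2 members were higher than the set, Rps4x (0.63 ± 0.22, limma adjusted p = 0.072) and Rpl3 (0.49 ± 0.18, limma adjusted p = 0.084), the protein that shapes the peptidyl transferase centre.

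Probes of the same gene often gave different values. Of 57 genes with more than 1 tested probe, 19 had probes on both sides of 0, and in 0 genes were probes called in opposite directions. Over all 176 tested probes, 43 (24.4%) were called lower and 0 higher, where 19.2% of all tested probes were called lower and 14.3% higher. Probes that held a polyadenylation signal (AATAAA or ATTAAA) had a median log2 fold change of -0.47 (68 probes, 29 or 42.6% called lower), and those without it -0.17 (108 probes, 14 or 13% called lower). Over all tested probes the medians were -0.19 with the signal and -0.10 without, and 22.4% and 18.6% were called lower. In 27 of the 33 ribosomal protein genes that had both kinds of probe, the probe with the signal showed the lower value.

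Since both probes of a transcript are read on the same array, their difference does not depend on a shift of the whole array. In 44 ribosomal protein transcripts the most upstream and the most downstream probe lay at least 50 bases apart and were both above background on all 7 arrays. This comparison was chosen after the values had been seen. In 37 of the 44 (84.1%) the log2 fold change of the upstream probe was above that of the downstream probe, beside 58.2% of all 2309 such transcripts, with a median difference of 0.20 beside 0.090. The median distance between the probes was 167.5 bases in the 44 and 819 in all 2309. Among pairs limited to shorter distances, the share was 81.8% of 33 ribosomal protein transcripts and 65.4% of all 705. Their median differences were 0.18 and 0.10. Fitted across all 2309 transcripts with limma, the difference passed an adjusted p of 0.1 with the upstream probe higher in 9 ribosomal protein transcripts, where 13% of all transcripts did, and with the upstream probe lower in 1, Rplp0, where 8.79% did. Transcripts of other bright genes leaned the same way: among the 289 transcripts whose downstream probe lay among the brightest 10%, members included, 76.8% had the higher value upstream, with a median difference of 0.22. Among the 159 of these bright transcripts with the shorter distances, 76.1% had the higher value upstream, with a median difference of 0.15. The ribosomal protein transcripts thus stood out less from bright transcripts with similar distances than from all 2309. The probes of a pair also differed in brightness. In every ribosomal protein transcript with the dimmer probe upstream, the upstream probe had the higher log2 fold change. Every one with the lower value upstream had the brighter probe upstream. Of those that passed with the upstream probe higher, all but Rpsa had the dimmer probe upstream. Position and brightness were not separated.

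Rpsa showed the widest gap, along 4 probes. From base 91 it read 4.15, 3.46, 3.31 and 3.86 in +/+_1155, +/+_1156, +/+_1024 and +/+_991, and 4.08, 4.73 and 3.93 in -/-_N3, -/-_N5 and -/-_2866. From base 990, where the probe holds the polyadenylation signal, it read 7.25, 7.05, 7.47 and 7.15 in Rbpj+/+, and 6.48, 6.59 and 6.47 in Rbpj-/-. The upstream probe leaned towards Rbpj-/- with a log2 fold change of 0.55 ± 0.28 and overlapping groups, and the probe from base 990 was lower in all Rbpj-/- livers at -0.72 ± 0.18 (SE, limma adjusted p = 0.024). The probes from bases 876 and 1340 gave -0.51 ± 0.22 and -0.87 ± 0.28. The difference between the outermost probes, from bases 91 and 1340, was 1.42 ± 0.40 (SE, limma adjusted p = 0.060). The probe from base 1340 was dim and read -1.95, -2.49, -1.98 and -2.37 in Rbpj+/+, and -2.44, -3.46 and -3.29 in Rbpj-/-. Its groups overlapped, and with quantile scaling it gave -0.69 ± 0.51 (SE). The size of the widest gap therefore rests on a dim probe.

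Rpl26, a large-subunit protein, had 3 probes on 1 transcript. The log2 fold changes were 0.22 ± 0.22 from base 63, -0.021 ± 0.21 from base 180 and -0.35 ± 0.20 from base 283, falling step by step towards the 3′ end. The outermost probes differed by 0.57 ± 0.15 (SE, limma adjusted p = 0.055), and in this difference all Rbpj-/- animals lay above all Rbpj+/+ animals. Rps2, a small-subunit protein, gave 0.51 ± 0.25 from base 354 and -0.36 ± 0.21 from base 807, a difference of 0.88 ± 0.21 (SE, limma adjusted p = 0.044). The other transcripts that passed with the upstream probe higher were those of Rps18, Rpl7a, Rpl8, Rpl29, Rpl9 and Rps15, with differences of 0.44 to 0.58. Rpl7a had a further tested probe from base 791, at -0.011 ± 0.34. The pair used the other probe from that base, at -0.46, so this call depends on which of them is taken. Rpl21 had 6 tested probes on 3 transcript records. The brightest, from base 491, gave -0.69 ± 0.23 and the probe from base 493 of the same record -0.47 ± 0.20, which did not pass. A probe from base 137 of another record was called lower at -0.56 ± 0.18 (SE, limma adjusted p = 0.055). On the record that RefSeq matches to Rpl21 the probes from bases 377, 824 and 1514 gave 0.22 ± 0.24, 0.12 ± 0.29 and 0.11 ± 0.25, and 0 of them passed. The probes from bases 824 and 1514, the farthest downstream and the only ones placed on the gene's own chromosome, had values above 0. Both were dim, with Rbpj+/+ means of -2.31 and -1.94, against 7.31 for the brightest probe. With quantile scaling they gave -0.0046 ± 0.45 and 0.27 ± 0.60 (SE), so they say little about the direction at that locus.

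By animal, the median over the 44 transcripts of upstream minus downstream, set against the Rbpj+/+ mean of each transcript, was 0.023, -0.057, -0.019 and 0.049 in +/+_1155, +/+_1156, +/+_1024 and +/+_991, and 0.11, 0.33 and 0.10 in -/-_N3, -/-_N5 and -/-_2866. The groups did not overlap, and -/-_N5 lay farthest from the Rbpj+/+ animals. Without -/-_N5, 32 of the 44 transcripts still had the higher value upstream, and 0 passed the limma test (10 at an unadjusted p below 0.05). The 9 that passed with the upstream probe higher came to 1 without +/+_1024 or without -/-_2866, to 4 without +/+_1156, +/+_991 or -/-_N3, and to 10 without +/+_1155. Calls fell over all 2309 transcripts too. There the 301 that passed with the upstream probe higher came to 24 without -/-_N5, 92 without +/+_1024 and 94 without -/-_2866. Without +/+_1156, +/+_991 or -/-_N3 they came to 217, 167 and 148, and without +/+_1155 to 368. Over all 2309 transcripts the medians were -0.024 to 0.038 in Rbpj+/+ and 0.037 to 0.15 in Rbpj-/-. With quantile scaling 37 of the 44 had the higher value upstream and 4 passed, beside 57.6% and 147 of all 2309 transcripts. Among pairs limited to shorter distances, the share was then 78.8% of the ribosomal protein transcripts, 63.3% of all and 62.9% of the bright ones. The labelling kit copies RNA from the poly(A) tail, and RNA integrity by animal was not used here. What part labelling, RNA integrity, copies of the genes, the brightness of the probes or the choice of 3′ ends has in the pattern was not tested.

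**Figure D5:**
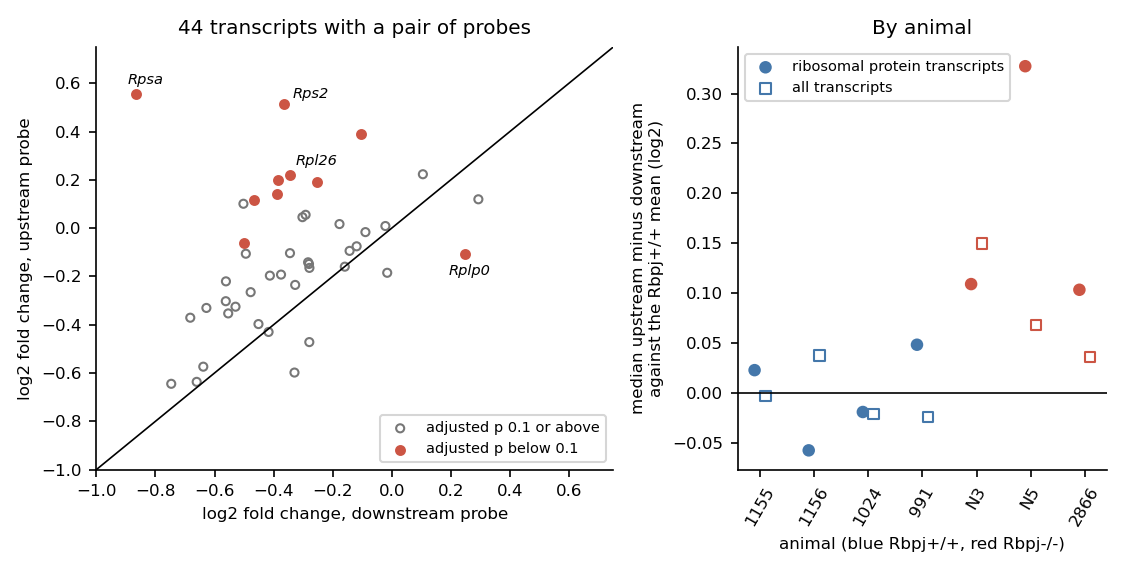
Left, log2 fold change (Rbpj-/- minus Rbpj+/+) of the most upstream against the most downstream probe of 44 ribosomal protein transcripts, with the line of equality and filled points where the difference passed an adjusted p of 0.1. Right, median upstream-minus-downstream difference of each animal against the Rbpj+/+ mean, filled circles for the 44 transcripts and open squares for all 2309. On the left, 37 of 44 points lie above the line, and on the right the 3 Rbpj-/- circles lie between 0.10 and 0.33, above all Rbpj+/+ circles.

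The counts in this paragraph stand beside 19.6% of all tested genes called lower and 14.6% called higher. Of 5 ribosomal proteins followed here whose names fall outside the rule, 1 was called lower and 0 higher, with a median of -0.37. Gnb2l1, which codes for the small-subunit scaffold RACK1, was the gene called, at -0.49 ± 0.19 (SE, limma adjusted p = 0.093). Fau, made as a fusion with a ubiquitin-like protein, gave -0.37 ± 0.22 (SE, limma adjusted p = 0.241), and Rpl36al, Rpl22l1 and Rpl7l1, further copies, gave -0.46 ± 0.21 (SE, limma adjusted p = 0.145), -0.36 ± 0.26 (SE, limma adjusted p = 0.325) and 0.28 ± 0.30 (SE, limma adjusted p = 0.528). With quantile scaling 0 of the 5 passed. A further 2 names outside the rule were added after their values had been seen: Rps3a1 gave -0.40 ± 0.22 (SE, limma adjusted p = 0.219), and Rpl37rt, a copy of Rpl37, was called lower at -0.58 ± 0.18 (SE, limma adjusted p = 0.052) without overlap, with -0.20 (limma adjusted p = 0.302) under quantile scaling. Of 6 pseudogenes named after members, 1 was called lower, Rpl17-ps8 at -0.54 ± 0.17 (SE, limma adjusted p = 0.053), and 0 higher, with log2 fold changes of -0.54 to -0.084.

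Of 69 tested genes of ribosome biogenesis, 5 were lower and 2 higher (7.25% and 2.9%), beside 19.6% and 14.6% of all tested genes, with a median of -0.052. Ncl and Npm1, abundant nucleolar proteins, gave -0.011 ± 0.28 (SE, limma adjusted p = 0.981) and -0.084 ± 0.31 (SE, limma adjusted p = 0.863). Utp14a, part of the small-subunit processome, fell, with -1.44 ± 0.31 (SE, limma adjusted p = 0.013). Eif6, which keeps large subunits from joining too early and acts in their maturation, read 3.62, 2.58, 2.70 and 3.47 in Rbpj+/+, and 4.66, 5.36 and 4.21 in Rbpj-/-, so that all Rbpj-/- livers lay above all Rbpj+/+ livers. Eif6 rose by 1.65 ± 0.35 (SE, limma adjusted p = 0.013) on the log2 scale, and by 1.78 with quantile scaling (limma adjusted p = 0.016).

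Among 14 other mRNAs with a TOP motif, 3 were lower and 1 higher (21.4% and 7.14%, beside 19.6% and 14.6% of all tested genes), with a median of -0.18. Tpt1, a small protein with a TOP mRNA, read 9.61, 9.34, 9.87 and 9.76 in Rbpj+/+, and 8.62, 8.81 and 8.84 in Rbpj-/-, without overlap, and its log2 fold change was -0.89 ± 0.20 (SE, limma adjusted p = 0.014) and -0.38 (limma adjusted p = 0.076) with quantile scaling. Eef1a1, the elongation factor that brings tRNAs to the ribosome, gave -0.57 ± 0.20 (SE, limma adjusted p = 0.067), Eef2 -0.31 ± 0.22 (SE, limma adjusted p = 0.328) and the poly(A)-binding protein Pabpc1 0.083 ± 0.21 (SE, limma adjusted p = 0.794). Hnrnpa1 was higher, at 1.14 ± 0.28 (SE, limma adjusted p = 0.021). Of 37 initiation and elongation factors, 4 (10.8%) were lower and 0 higher, with a median of -0.034, and the helicase Eif4a2 fell most (-1.28 ± 0.25 (SE, limma adjusted p = 0.009)), while Eif4e3, with the next largest change in size, gave 1.25 ± 0.51 (SE, limma adjusted p = 0.109).

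Of 23 regulators of ribosomal protein genes and their translation, 3 were lower and 2 higher (13% and 8.7%, beside 19.6% and 14.6% of all tested genes), with a median of -0.16. Myc, the transcription factor that drives ribosome production, was higher at 1.24 ± 0.47 (SE, limma adjusted p = 0.086), with groups that overlapped and levels of -0.64, -0.54, 8.6e-05 and -1.06 in Rbpj+/+, and 0.94, 1.63 and -0.52 in Rbpj-/-. With quantile scaling Myc gave 1.28 (limma adjusted p = 0.105). Cdkn1a, a cell cycle inhibitor induced by p53, gave 1.30 ± 0.83 (SE, limma adjusted p = 0.283). Of 76 mitochondrial ribosomal protein genes, 3 were lower and 2 higher (3.95% and 2.63%), with a median of -0.18 and -0.041 with quantile scaling. The largest changes were those of Mrpl49 (-0.72 ± 0.21 (SE, limma adjusted p = 0.038)) and Mrpl24 (-0.69 ± 0.18 (SE, limma adjusted p = 0.027)).

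Markers of cell types differed between the genotypes in both directions. Of all tested genes, 14.6% were called higher and 19.6% lower. Of 11 tested proliferation genes 10 were higher, of 11 macrophage genes 8 were higher and 1 lower, of 11 stellate cell and fibroblast genes 8 were higher, of 9 endothelial genes 4 were higher and 1 lower, of 7 cholangiocyte genes 3 were higher, and of 8 neutrophil genes 2 were higher and 1 lower. Of 15 hepatocyte genes 9 were lower, of 10 lymphocyte genes 6 were lower and 1 higher, and of 8 erythroid genes 2 were lower. The summed level of the hepatocyte markers, in units of each array's 75th percentile, was 7043 to 9439 in Rbpj+/+ and 4748 to 5474 in Rbpj-/-, that of the macrophage markers 95.6 to 120 in Rbpj+/+ and 296 to 408 in Rbpj-/- and that of the proliferation markers 16.2 to 33.3 in Rbpj+/+ and 59 to 108 in Rbpj-/-, all without overlap. The erythroid sum was 927 to 1317 in Rbpj+/+ and 441 to 1013 in Rbpj-/-. The markers above background on 0 arrays were Aurkb (proliferation) and Muc1 (cholangiocyte). The hepatocyte markers had 9 called lower with the percentile shift and 3 lower and 2 higher with quantile scaling. Their median log2 fold change was -0.69 with the percentile shift and -0.016 with quantile scaling, so their fall depends on the scale. The part of the cell makeup in the values of the ribosomal protein genes was not tested.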

How the data were processed

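RNA of 7 whole livers was measured on 1-colour Agilent 8x60K mouse arrays. The authors extracted the spots with Feature Extraction (10.7.3.1 per the submitters' processing notes) and deposited background-subtracted spot intensities, 1 file per array, with placements on mm9. They also deposited a table of log2 values. The methods describe a 75th percentile shift and a baseline set to the median, but the table departs from that scale, as its columns correlated at 1.00 with centred quantile-normalized values and at 0.776 to 0.876 with percentile-shifted ones, each column's median lay between -0.0039 and 0, and the direction followed the signal. From the intensities, log2 values were shifted to each array's 75th percentile as in the study's methods, spots flagged as non-uniform or population outliers (146 probe values) were left out, spots of a probe were averaged, and a probe was tested if it exceeded background throughout 1 genotype or both. limma (3.58.1, R 4.3.3) compared the genotypes over 24548 probes of 18771 genes, with Benjamini-Hochberg adjustment over all tested probes and a threshold of 0.1. limma stands in for the shrinkage t of the methods, which was an alternative. A gene was read by its brightest tested probe. Alternatives changed the scaling, background, filter, test, probe choice and animals. Animals were separate, and 7 arrays limit the precision. Named were Rbpj, the 5 highest and 5 lowest members, members chosen by role or as copies, and fixed or most changed genes of the comparison lists, which hold genes of ribosome assembly, TOP mRNAs, translation, its regulators and cell type markers. One gene named by the rule is not reported here. The members and the lists were chosen with earlier results of these data known.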

Additional observations from a re-analysis of the deposited data

Results flagged for a closer look

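Of 98 genes checked, 4 had 1 Rbpj+/+ animal far from the other 3, by the gap to its nearest neighbour as a share of the group's whole range (above Dixon's critical value for 4 animals). Chance alone flags about 1 in 20 groups. In all 4 genes the animal was +/+_1156, the lowest, whose array had brighter dim probes than those of the other Rbpj+/+ animals. Rps26 read 6.93 in +/+_1156 against 7.37 to 7.39 in the others, a gap of 0.974 of the range. Rpl6 read 7.72 in +/+_1156 against 7.96 to 7.97 (0.943), Rpl30 6.66 against 7.03 to 7.06 (0.92) and Pabpc1 5.99 against 6.47 to 6.53 (0.885).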

How the results depend on the processing

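The direction and the number of calls depended on the scale. The members called lower, 20 with the percentile shift, came to 3 with quantile scaling and with the deposited log2 table, 34 with a median shift, 8 with normexp background correction, 35 with array weights, 0 without the filter on dim probes, 14 with the methods' shrinkage t, 11 of the 40 genes that have a tested probe on their own chromosome, 13 with the most upstream probe, 5 at a threshold of 0.05, 1 when scaled on the members' median and 0 without scaling. Their median log2 fold change was -0.053 (quantile), -0.049 (deposited table), -0.084 (normexp), -0.0036 (members' median) and 0.35 (no scaling). Over all tested genes it was -0.040, -0.039, -0.074, 0.25 and 0.60 in the same order. Members called higher, 0 otherwise, came to 2 with normexp (Rpl3 and Rps4x), 2 on the members' median and 10 without scaling. Of all tested genes, 15.2% were called lower and 16.6% higher with quantile scaling. On the members' median these shares were 6.76% and 29.5%, and without scaling 2.38% and 41.1%. For the other alternatives they are not given here, so those counts cannot be read as particular to the members. Probes called lower, 43, came to 7 (quantile), 7 (deposited table), 67 (median shift), 19 (normexp), 0 (no filter), 68 (array weights), 1 (members' median) and 0 (no scaling). Probes called higher came to 5 (quantile), 5 (deposited table), 2 (75th percentile of detected probes), 9 (normexp), 17 (members' median) and 32 (no scaling). The shares of all tested probes called under these alternatives are not given here, so the probe counts cannot be read as particular to the members. Transcripts that passed with the upstream probe higher, 9, came to 4 with quantile scaling and 11 with normexp. Over all 2309 transcripts the 301 that passed in this way came to 147 and 351. Rbpj did not pass without the filter (-1.13) or without scaling (-0.41). The cause was not tested, except that the scalings differ by construction. The scale on the members' median, no scaling, the upstream and downstream probes, own chromosomes and leaving out +/+_1156 and -/-_N3 together (18 members lower) were added after the data had been seen.

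Leaving out 1 animal at a time gave 1 to 32 members called lower, 4 to 67 probes called lower, a median of -0.50 to -0.27, and 0 to 10 transcripts that passed with the upstream probe higher. Over all 2309 transcripts, 24 to 368 passed in this way. The shares of all tested genes and probes called in these fits are not given here. Over the named genes, 494 of the alternative values kept direction and call, 73 lost the call, 33 gained it and 34 changed sign. The sign changed with quantile scaling for Rplp0 (0.078), Rplp2 (0.20), Rps27a (0.039), Rpl39 (0.17) and Fau (0.024), with the deposited table for the same genes (0.082, 0.21, 0.044, 0.17 and 0.040), and with normexp for Rplp0 (0.016), Rplp2 (0.15), Rps27a (0.041) and Rpl39 (0.20). It changed for Rpl15 with a median shift (-0.0081), array weights (-0.020), without +/+_1156 (-0.10), without -/-_N5 (-0.16), without +/+_1156 and -/-_N3 (-0.0012), with the mean of its probes (-0.0065) and on its own chromosome or with the most downstream probe (-0.022 each). Without -/-_N5 it changed for Rps19 (-0.050, and up to 0.34 without -/-_2866) and Rpl3 (-0.080). By probe, it changed for Rpl39 (mean of probes 0.091, most upstream 0.12, most downstream 0.29), Rpl21 (matched record 0.22, own chromosome or most downstream 0.11), Rplp0 (own chromosome or most downstream 0.25), Rpsa (most upstream 0.55) and Rps4x (most downstream -0.18). No paired analysis was possible because the genotypes share no animal or replicate number.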
